A study of Mus musculus with 8 samples.

Results

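Isolated variable H3K4me3 regions are sites of trimethylated lysine 4 of histone H3 that were called in some but not all of 4 brain libraries and that stood away from the sites called in every library. The peaks of the 4 lists were merged into 19712 union regions wherever they touched or overlapped. A region was a member when 1 to 3 of the libraries had a peak in it and more than 1000 bp separated it from the nearest region with a peak in all 4, called a shared region below. This gave 2993 members, beside 14943 shared regions and 1776 variable regions that lay within 1000 bp of a shared region. Members were chosen by the measured presence of peaks and by the gap, so the values for these are descriptions and carry no test.

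The chromatin came from E12.5 mouse brain, on a mixed strain background, and was precipitated with an antibody to H3K4me3. The dKO group had 2 libraries from brains labelled Lats1/2;Nestin-Cre dKO, in which both Lats genes were deleted by a Cre driven from Nestin regulatory sequence. The 2 WT libraries came from animals labelled wild type, which the design describes as lacking Cre. Only the dKO animals carried Cre, so its presence and the loss of Lats1 and Lats2 cannot be told apart. Nestin-Cre acts in neural progenitors and their descendants, and the brain also holds vessels and blood cells outside that lineage. The protocol describes brains processed one by one, but no label names the animal behind a library, so the spread between libraries may be partly technical.

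H3K4me3 is laid down around transcription start sites by the SET1 and MLL methyltransferase complexes and is strongest at promoters rich in CpG. Weak H3K4me3 is also found at enhancers, at alternative starts and at promoters that are active in a small share of the cells of a tissue. Lats1 and Lats2 are the kinases of the Hippo pathway that phosphorylate the coactivators YAP and TAZ and keep them out of the nucleus. In a whole brain, fewer cells carrying the mark and less of the mark per cell cannot be told apart, and where a library has no peak the mark may still be present below the limit of the caller.

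The libraries were unequal before any comparison of members. The lists held 18048 and 17367 peaks in dKO replicates 1 and 2 and 19486 and 19331 peaks in WT replicates 1 and 2, and their read depth is unknown. The highest deposited score, whose scale is not named, was 1162 and 870 in the dKO lists and 1444 and 1406 in the WT lists, so dKO replicate 2 had both the shortest list and the lowest top score. For this reason scores are given as percentiles within their own list, where 100 is the strongest peak, and the main counts and differences are also given without dKO replicate 2.

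Members were mostly seen in WT libraries. Replicates 1 and 2 had a peak at 1163 and 346 members in dKO, against 1871 and 2177 members in WT. The means were 754.5 ± 578 regions in dKO and 2024 ± 216 in WT (SD, n = 2 each). The genotypes did not overlap, but the 2 dKO libraries were farther from each other than dKO replicate 1 was from WT replicate 1. The variable regions within 1000 bp of a shared region numbered 599 and 205 in dKO and 1031 and 1253 in WT, also without overlap. Member peaks made up 6.57% and 2.01% of the dKO lists and 9.75% and 11.3% of the WT lists. They covered little of the marked sequence, with 2.12% and 0.611% of the base pairs under peaks in dKO and 3.33% and 3.85% in WT. When each list was cut to its 17367 top-scoring peaks, the members with a peak numbered 1183 and 688 in dKO replicates 1 and 2 and 1135 and 1490 in WT replicates 1 and 2, so that the genotypes overlapped. Without dKO replicate 2, and with members found anew from the other lists, they numbered 513 in dKO replicate 1 and 1207 and 1499 in WT replicates 1 and 2.

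The way the peaks combined over the libraries was uneven. Of the 2993 members, 1284 had a peak in 1 library, 854 in 2 and 855 in 3. A peak in at least 1 dKO library was present at 1399 members (46.7%), and in at least 1 WT library at 2798 (93.5%). Members without any WT peak numbered 195 (6.52%), and members without any dKO peak 1594 (53.3%). The shares were 7.60% and 58.4% among the variable regions within 1000 bp of a shared region, so both kinds of region were found mostly in WT. The commonest pattern among the 14 possible ones was a peak in WT replicate 2 alone, with 661 members, followed by a peak in all libraries but dKO replicate 2, with 627. Next came both WT libraries without dKO, with 488, and WT replicate 1 alone, with 445. A peak in dKO replicate 1 alone was seen at 145 members and in dKO replicate 2 alone at 33.

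**Figure D1:**
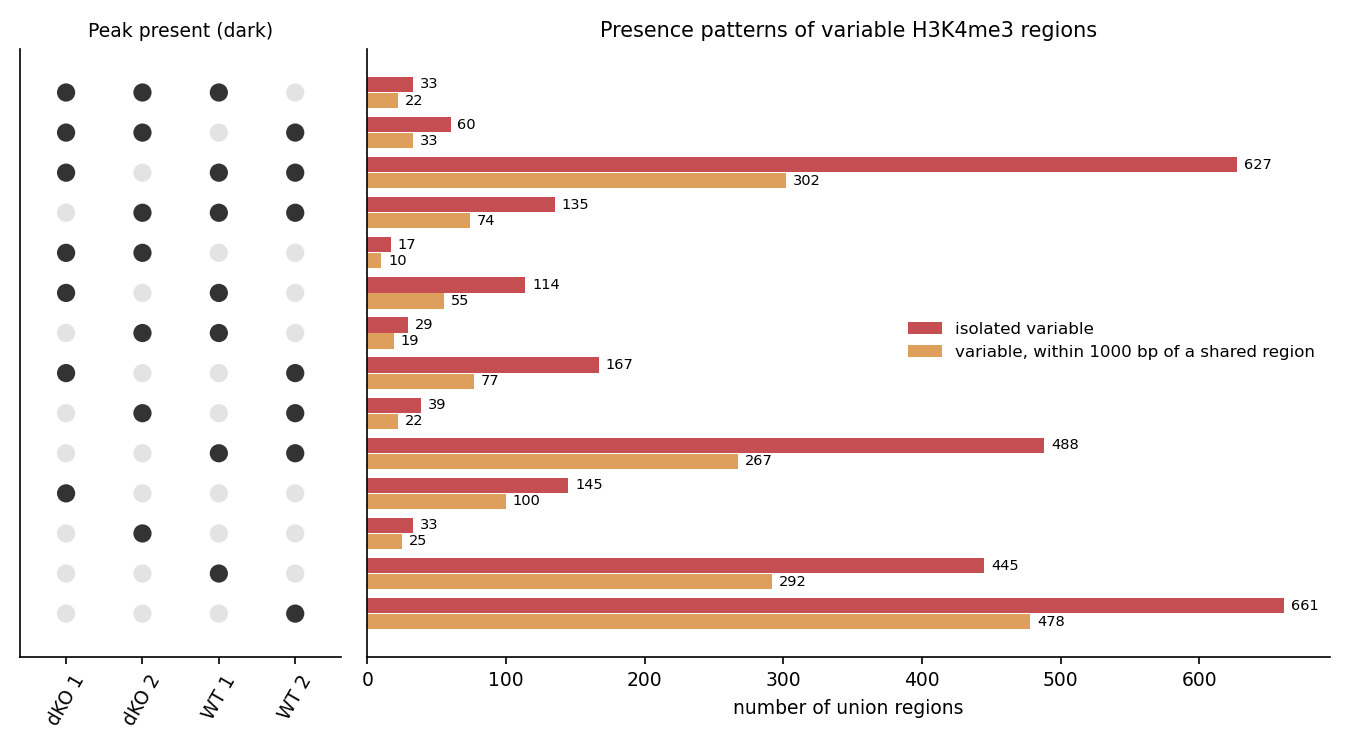
Number of union regions (horizontal axis) for each of the 14 presence patterns, which are drawn as dark dots on the left for the libraries with a peak. Red bars are isolated variable regions and orange bars are variable regions within 1000 bp of a shared region, and in both the pattern that lacks only dKO replicate 2 is far more frequent than the other patterns of 3 libraries.

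The 855 members of 3 libraries show which library was missing where the site was otherwise reproducible. The missing library was dKO replicate 2 at 627 of them (73.3%), dKO replicate 1 at 135 (15.8%), WT replicate 1 at 60 (7.02%) and WT replicate 2 at 33 (3.86%). Among the 431 variable regions of 3 libraries close to a shared region, dKO replicate 2 was missing at 302 (70.1%). Missing dKO replicate 2 was thus frequent in both kinds of region, and its part in the lower dKO counts was not tested apart from the values without it.

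Sites that followed the genotype completely were few in dKO. A peak in both dKO libraries and in neither WT library was found at 17 members (0.568%), and the reverse at 488 members (16.3%). Over all 19712 union regions the same patterns held for 0.137% in the dKO direction and 3.83% in the WT direction, but shared regions cannot take either pattern by their definition. Over the variable regions within 1000 bp of a shared region, which can, the shares were 0.563% and 15%. The shares among members lay close to these, and nothing about genotype is read from them. With lists of equal length the counts became 58 in dKO and 192 in WT. Leaving out a library leaves its genotype to be judged on 1 library, and the counts for dKO and WT were then 53 and 1104 without dKO replicate 1, 156 and 607 without dKO replicate 2, 51 and 1170 without WT replicate 1, and 77 and 970 without WT replicate 2.

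The members present only in dKO were short, like the other members, and mostly low in rank. The median width at these members was 302 and 279 bp in dKO replicates 1 and 2. All member peaks of the same lists had medians of 304 and 277 bp and median percentiles of 8.83 and 6.31. Ordered by the lower of the 2 score percentiles, the first dKO-only member lay at chr1:135995583-135996243 (mm9). It had peaks of 661 and 324 bp at percentiles 15.3 and 21.0 in dKO replicates 1 and 2. The second lay at chr5:93239306-93239917, with 570 and 474 bp at percentiles 14.8 and 16.8. The third lay at chr11:107776057-107776378, with 305 and 319 bp at percentiles 19.2 and 14.6. Even these strongest dKO-only sites stood below percentile 25 of both dKO lists. The region at chr6:31888354-31888695 was far from any shared region, with a gap of 373638 bp, and had 293 and 295 bp. The region at chr2:118380115-118380493 was nearer, with a gap of 4169 bp, and had 372 and 329 bp. The lower of the 2 percentiles was 11.4 or more for these 5 and 5.56 or less for the other 12.

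Among those 12, the next 5 in order were spread over 4 chromosomes. They lay at chr11:87591793-87592152, at chr18:76538631-76538934 and at chr13:100215955-100216668. The remaining 2 were at chrX:46847214-46847589 and chrX:78318677-78319020. Chromosome 11 held 4 of all 17 dKO-only members, and no other chromosome held more than 2. It also held 236 of the 2993 members, and 33 of the 346 with a peak in dKO replicate 2. No concentration is read from so few regions. The lower percentile of the last 7 ran from 1.48 to 3.15, which places them near the bottom of a dKO list.

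The 17 members present only in dKO had a median percentile of 6.60 and 6.31 in the lists of dKO replicates 1 and 2, and the 488 present only in WT one of 9.44 and 10.6 in the lists of WT replicates 1 and 2. The first WT-only site by the same order lay at chr17:80790909-80791492, with peaks of 581 and 525 bp at percentiles 36.9 and 34.8 in WT replicates 1 and 2. The second lay at chr6:48579199-48579823, with 528 and 625 bp at percentiles 27.9 and 28.7. The third lay at chr17:3083931-3084482, with 383 and 552 bp at percentiles 27.4 and 38.5. No dKO library had a peak at these sites, although their WT ranks were above percentile 25 of both WT lists. They head a set of 488, whereas the first dKO-only sites head a set of 17, and a larger set can reach higher ranks. Percentiles also depend on how many variable peaks a list holds. The strength of WT-only and dKO-only sites is therefore not compared. The fourth, at chr6:105627707-105628188, was 1090513 bp from the nearest shared region, with 463 and 408 bp. The next were at chr2:145686139-145686861 (375 and 699 bp), chr8:35187014-35187562 (419 and 489 bp) and chr2:34527004-34527486 (352 and 483 bp). The last of the first 10 were at chr16:50736518-50737536 (512 and 788 bp), chr19:53779437-53779774 (274 and 338 bp) and chr11:3023634-3024127 (464 and 416 bp). Their gaps to a shared region ran from 1666 bp to the 1090513 bp of the fourth.

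Members that lacked a single library included the strongest sites of all. On chr2:91848297-91849233, dKO replicate 1 had 832 bp in 2 peaks at percentile 35.2, and WT replicates 1 and 2 had 818 and 848 bp at percentiles 40.7 and 57.2, while dKO replicate 2 had none. On chr11:118062844-118064059, dKO replicate 1 had 807 bp and the WT libraries 1216 and 1027 bp, and dKO replicate 2 again had none. On chrX:100676218-100678365, dKO replicate 1 had 1809 bp in 2 peaks at percentile 48.1, and WT replicates 1 and 2 had 1688 and 2083 bp at percentiles 32.0 and 59.1. In dKO replicate 1, as in WT replicate 2, no member scored higher than this chromosome X site, which had no peak in dKO replicate 2.

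The other patterns of 3 libraries held fewer members, and their first sites are given in the same order. Where dKO replicate 1 was missing, the first sites were at chr1:5578480-5578989, with 280 bp in dKO replicate 2 and 479 and 440 bp in the WT libraries, at chr11:113033943-113034363 and at chr1:88331194-88331598. Where WT replicate 1 was missing, they were at chr6:52108214-52108843, with 451 and 299 bp in dKO and 585 bp in WT replicate 2, at chr3:96205673-96206129 and at chr18:76194584-76194987. Where WT replicate 2 was missing, they were at chr1:74818516-74818930, with 255 and 222 bp in dKO and 415 bp in WT replicate 1, at chr6:18120559-18120985 and at chr3:145812864-145813348.

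Sites called in 1 library only were weak as a rule, with a few exceptions. The highest percentile among them was 22.2 for dKO replicate 1, at chr8:126152393-126152992 with 600 bp, and 16.8 for dKO replicate 2, at chr7:109713672-109713985 with 314 bp. The second site of each was at chr2:154252361-154252638 and at chr17:28362841-28363126. For WT replicate 1 the highest was 29.1, at chr7:20006446-20006735 with 290 bp, and for WT replicate 2 it was 32.3, at chr14:76228839-76229347 with 509 bp. The second sites were at chr12:86491636-86492209 and at chr9:71063137-71063564. The median percentile of such sites was 5.98 and 3.67 in dKO replicates 1 and 2 and 6.76 and 7.88 in WT replicates 1 and 2.

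Members ranked low within their lists. The median percentile of member peaks was 8.83 and 6.31 in dKO replicates 1 and 2 and 11.5 and 11.9 in WT replicates 1 and 2. Each median covers only the members with a peak in that library, so the libraries were compared over unlike sets of regions. The rule also uses the presence of a peak, which may depend on its score, so no conclusion on genotype is drawn. The mean of these medians was 7.57 ± 1.78 in dKO and 11.7 ± 0.270 in WT (SD, n = 2 each), a difference of -4.13 percentile points with no overlap between genotypes (exact two-sided permutation p = 0.33, the smallest that 2 libraries against 2 can give). With lists of equal length the difference was -0.42 points (exact permutation p = 0.6667), a setting that also removes the lowest-scoring peaks of 3 lists and changes the members. Without dKO replicate 2 it was -3.17 points (exact permutation p = 0.33). Peaks of shared regions had median percentiles of 55.0 and 51.6 in dKO replicates 1 and 2 and 57.5 and 58.9 in WT. Peaks of variable regions within 1000 bp of a shared region had 8.83 and 6.31 in dKO and 11.5 and 10.6 in WT. The genotypes did not overlap in either set. Ranks within a list depend on its make-up, however. Shared regions held 90.1% and 96.8% of the peaks in dKO replicates 1 and 2 and 84.9% and 82.1% in WT replicates 1 and 2. Their median percentile is thus lower where fewer variable peaks lie below them, and it cannot show whether this order was particular to members. The difference between genotypes at members depends on the make-up of the lists in the same way. No test was run against shared regions.

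Member peaks lay in the lower part of every list, together with many peaks of shared regions. Among peaks below percentile 10 of the scores, 37.0% and 13.3% belonged to members in dKO replicates 1 and 2, against 44.2% and 48.6% in WT replicates 1 and 2. Between percentiles 20 and 30 the shares were 5.30% and 0.980% in dKO and 16.0% and 19.5% in WT. The highest member peak stood at percentile 48.1 and 28.9 in dKO replicates 1 and 2 and at 52.1 and 59.1 in WT replicates 1 and 2. Above percentile 50 there were 0 member peaks in either dKO list, 1 in WT replicate 1 and 2 in WT replicate 2. Below percentile 10 of the dKO replicate 2 list, 78.4% of the peaks were in shared regions, against 43.5% in dKO replicate 1, 31.0% in WT replicate 1 and 20.6% in WT replicate 2.

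**Figure D2:**
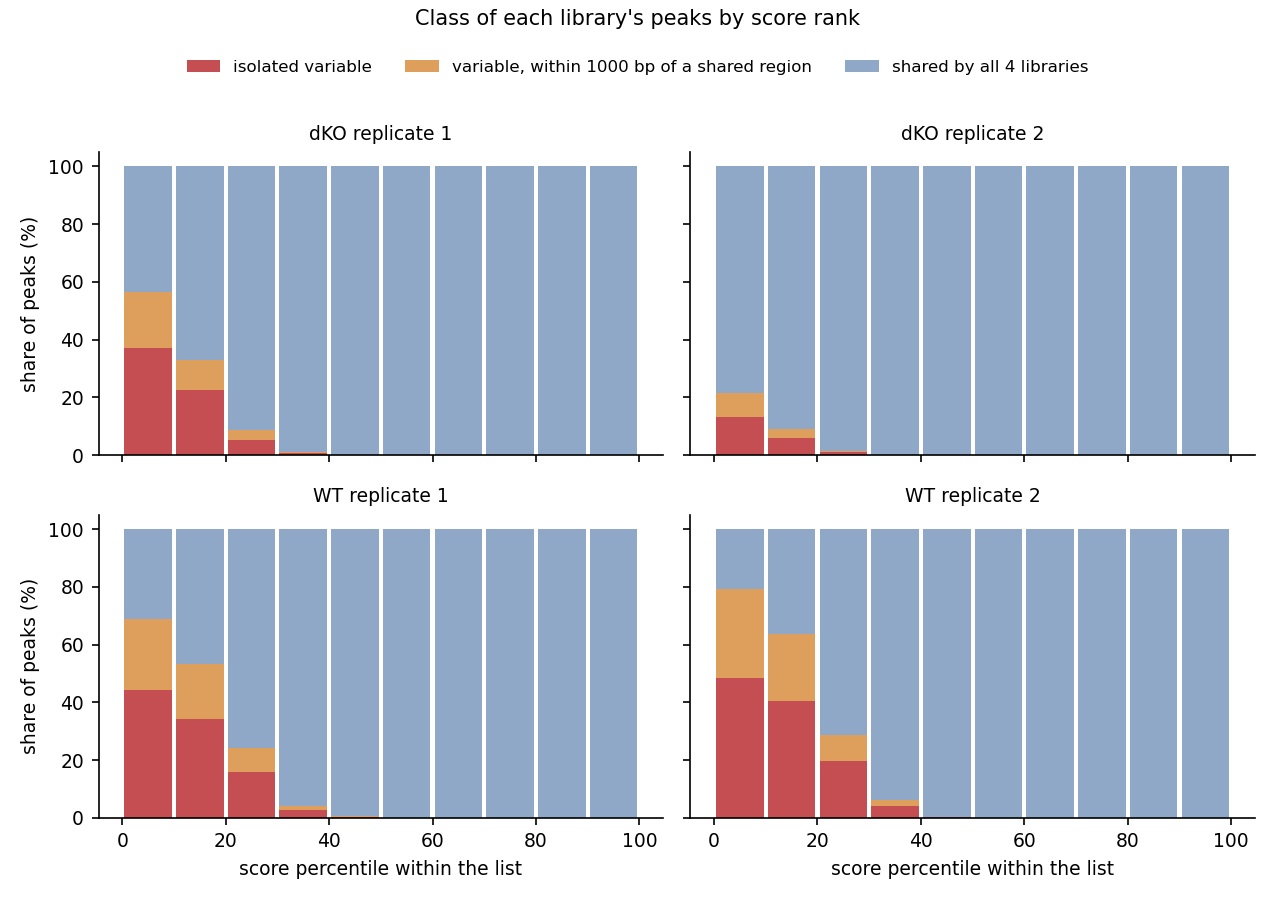
Share of each library's peaks (vertical axis, percent) that fell in members (red), in variable regions near a shared region (orange) or in shared regions (blue), in steps of 10 points of the score percentile within that list. Red is largest at the left of each panel, at 37.0% and 13.3% of the lowest step in dKO replicates 1 and 2 and 44.2% and 48.6% in WT replicates 1 and 2, and is gone from the upper part of all 4 lists.

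Among members of either WT library and of dKO replicate 1, a higher rank went with presence in others. Of the members of WT replicate 1 below percentile 5, 23.7% and 7.53% also had a peak in dKO replicates 1 and 2, and 50.1% had a peak in WT replicate 2. Of those at percentile 20 or above, 65.9% and 15.0% had a peak in dKO replicates 1 and 2, and 88.3% had a peak in WT replicate 2. Starting from WT replicate 2, the shares at percentile 20 or above were 64.6% for dKO replicate 1, 14.5% for dKO replicate 2 and 80.4% for WT replicate 1. From dKO replicate 1, the share found in dKO replicate 2 was 6.67% below percentile 5 and 21.7% at percentile 20 or above. The shares found in WT replicates 1 and 2 were 55.8% and 63.6% below percentile 5. At percentile 20 or above they were 81.1% and 86.8%. From dKO replicate 2, the share found in WT replicate 1 varied little, at 52.6%, 57.8%, 61.5% and 58.8% in 4 steps from low to high rank. In the same steps it was 64.4%, 68.9%, 68.3% and 82.4% for WT replicate 2. For dKO replicate 1 it was 26.7%, 30.0%, 39.4% and 35.3%. The step of highest rank held only 17 members. The rule itself removes any region where all 4 libraries had a peak, which also shapes these shares. Taking members found by at least 1 library of a pair, both libraries had the peak at 7.86% for dKO replicates 1 and 2 and at 44.7% for WT replicates 1 and 2. For dKO replicate 1 the share was 34.2% with WT replicate 1 and 34.4% with WT replicate 2. For dKO replicate 2, which had a peak at only 346 members, it was 9.75% and 10.2%. The share was therefore low in every pair with dKO replicate 2, whatever the genotype of the other library.

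Member peaks were narrow in all 4 libraries. Their median width was 304 and 277 bp in dKO replicates 1 and 2 and 307 and 326 bp in WT replicates 1 and 2. These medians, too, cover unlike sets of members in the 4 libraries. The means were 290.5 ± 19.1 bp in dKO and 316.5 ± 13.4 bp in WT (SD, n = 2 each), a difference of -26 bp (exact two-sided permutation p = 0.33). The genotypes did not overlap, although dKO replicate 1 was only 3 bp below WT replicate 1, and without dKO replicate 2 the difference was -10.5 bp (exact permutation p = 1). It was -66.5 bp with lists of equal length (exact permutation p = 0.33). Shared regions had median peak widths of 1040 and 912 bp in dKO and 1049.5 and 1152 bp in WT.

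Member peaks had a slightly larger median width than those of the variable regions next to shared ones. A nearby peak wide enough to touch a shared region was merged into it, so the rule itself can limit widths in that set. Its part in the difference was not tested. The median width was higher by 11 and 18 bp in dKO replicates 1 and 2 and by 21 and 32 bp in WT replicates 1 and 2, so that it was higher in 4 of 4 libraries. The mean difference was 20.5 ± 8.74 bp (SD, n = 4; exact two-sided sign-flip permutation p = 0.13, the smallest that 4 libraries can give). The difference in median score percentile was 0 in 3 libraries and 1.25 points in WT replicate 2 (mean 0.31, exact sign-flip permutation p = 1). Variable regions of both kinds therefore had low median ranks.

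**Figure D3:**
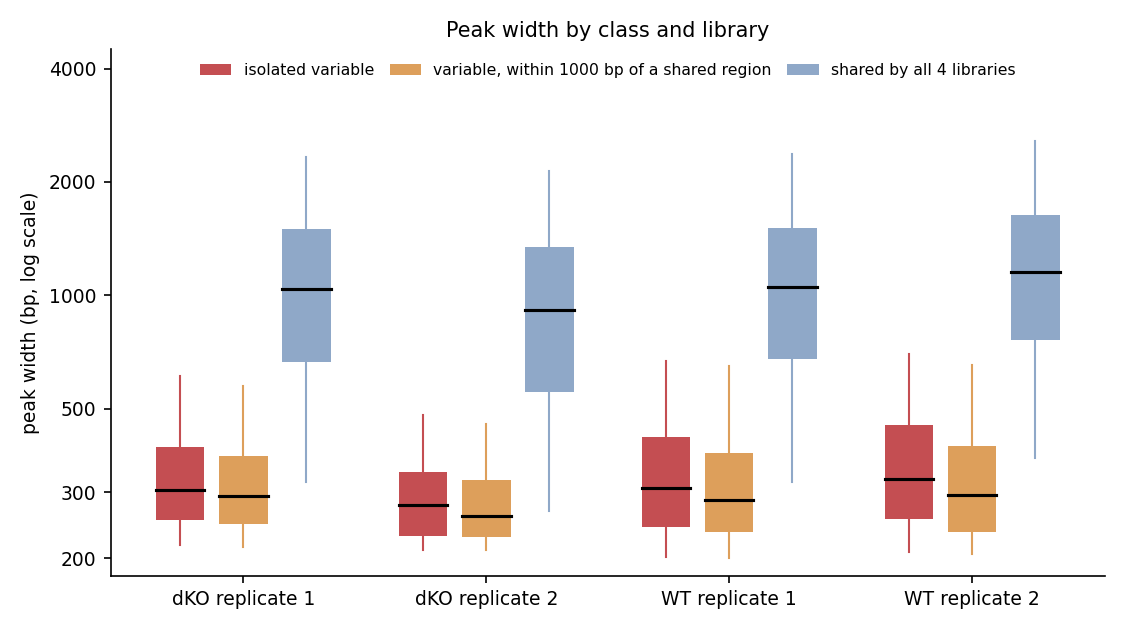
Peak width in bp (log scale) for members, for variable regions near a shared region and for shared regions in each library. Boxes span the quartiles of the peaks, black lines are medians and thin lines run from the 5th to the 95th percentile, and the member medians of 304 and 277 bp in dKO and 307 and 326 bp in WT lie well below those of shared regions.

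Wide peaks among members were rare. Peaks over 1000 bp numbered 4 and 1 in dKO replicates 1 and 2 and 12 and 17 in WT replicates 1 and 2. The widest single peak was at chr12:57633972-57636119, where WT replicate 1 had 1 peak of 2105 bp, WT replicate 2 had 1496 bp in 2 peaks and dKO replicate 1 had 1353 bp in 3 peaks. Its score percentile was only 10.5 in dKO replicate 1 and 9.44 and 19.5 in the WT libraries, so this domain was broad and low. The second was the chromosome X site from 100676218, and the third lay at chr9:45238289-45239863, with 383 bp in dKO replicate 1 and 1575 and 1081 bp in the WT libraries. None of the 3 had a peak in dKO replicate 2.

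Members found in more libraries had wider peaks at the median. The median peak width was 263 bp at members of 1 library, 299 bp at members of 2 and 356 bp at members of 3, against 1034 bp at shared regions. In WT replicate 1, the median percentile was 6.76 at members it held alone, 9.44 at those it held with WT replicate 2 only and 16.2 at those that lacked only dKO replicate 2. Within the 627 members that lacked only dKO replicate 2, the median width was 340 bp in dKO replicate 1 and 378 and 412 bp in WT replicates 1 and 2, and the median percentile was 10.5 in dKO replicate 1 and 16.2 and 18.1 in WT replicates 1 and 2. Within the 135 that lacked only dKO replicate 1, dKO replicate 2 had a median of 289 bp and the WT libraries 354 and 430 bp. In both patterns the dKO library with a peak had the narrowest one at the median. The patterns themselves require a peak in both WT libraries and none in 1 dKO library, so nothing about genotype is read from this. At shared regions the dKO medians were also lower, at 1040 and 912 bp against 1049.5 and 1152 bp in WT.

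Peaks that touch or overlap were merged into 1 region, so the distance between peaks of a member is bounded by the rule and is given as a description. Among members with a single peak in each library of a pair, the median distance between peak midpoints was 51 bp for dKO replicates 1 and 2 (105 members) and 55 bp for WT replicates 1 and 2 (1213 members). In shared regions these distances were 45.5 and 46.5 bp. The median overlap as a fraction of the bases under either peak was 0.649 in the dKO pair and 0.675 in the WT pair, against 0.867 and 0.881 in shared regions. Peaks of a pair that did not overlap at all, and were joined through another library, were found at 1 member in the dKO pair and 5 in the WT pair.

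The regions on either side of the gap limit are given as a description. The members with the smallest gaps were at chr6:84536016-84536257 and chr6:85142226-85142430, both at 1001 bp, and at chr2:4483927-4484165 at 1004 bp. Just outside the limit were a region at chr4:45836293-45836597 at 1000 bp, one at chr2:160194743-160195239 at 998 bp and one at chr10:116587223-116587498 at 983 bp. Each of these 6 had a peak in 1 library, at percentiles from 0.235 to 3.25.

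Most members were much farther away. The median gap was 28651.5 bp, and the lower and upper quartiles were 9441 and 76772.5 bp. Gaps of 5000 bp or less were found at 203 members up to 2000 bp (6.78%) and at 281 beyond that (9.39%), while 570 members (19.0%) had more than 100000 bp. The median gap of members with a peak was 29046 and 32000 bp in dKO replicates 1 and 2 and 29727 and 29059 bp in WT replicates 1 and 2, so the genotypes overlapped. Shared regions more than 1000 bp from the next shared region had a median gap of 33814 bp. The largest gaps were 2625189 bp at chr1:117581222-117581530 (242 and 309 bp in WT replicates 1 and 2), 1740512 bp at chr17:39148254-39148560 (240 bp in dKO replicate 1 and 264 bp in WT replicate 2) and 1702301 bp at chr3:3508092-3508415 (324 bp in WT replicate 2).

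**Figure D4:**
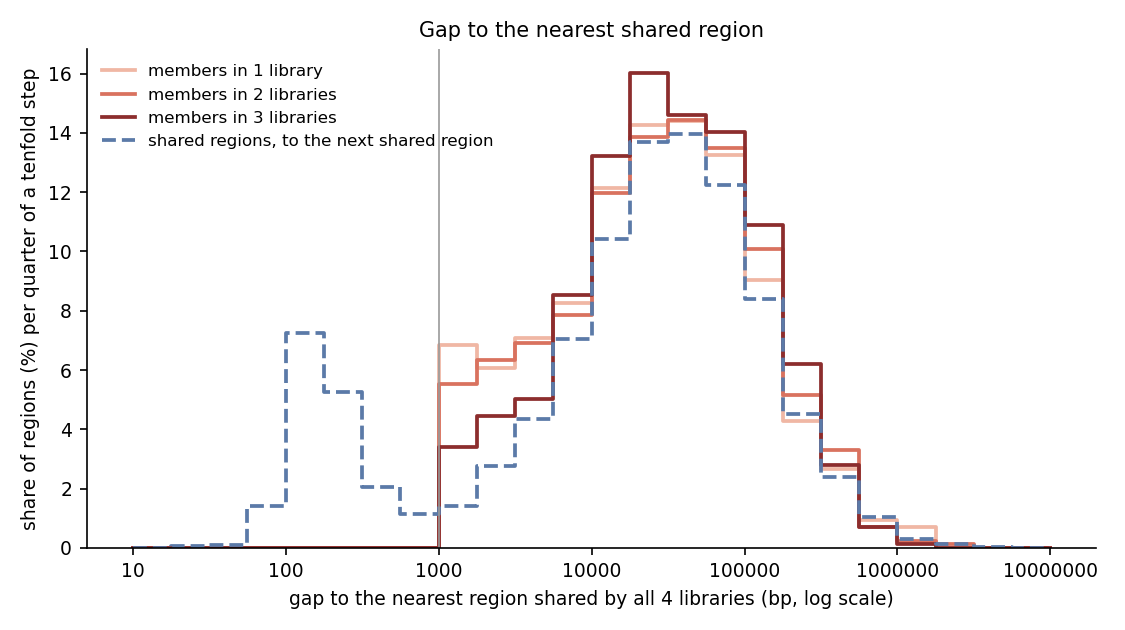
Share of regions (vertical axis, percent) by gap to the nearest shared region in bp (log scale), for members of 1, 2 and 3 libraries and, dashed, for shared regions to the next shared region. The grey line marks the limit of 1000 bp that members had to exceed, and beyond it the curves of members and shared regions are both highest between 10000 and 100000 bp.

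Members near a shared region were found in fewer libraries. Among the 484 with a gap up to 5000 bp, 21.3% had a peak in 3 libraries and 48.8% in 1. Among the 1441 between 5000 and 50000 bp the shares were 30.3% and 42.4%, and among the 1068 beyond 50000 bp, including 3 on a chromosome with no shared region, 29.6% and 40.9%. The share present only in both WT libraries was 18.0%, 15.7% and 16.4% in these classes, and the 17 dKO-only members divided as 5, 5 and 7. The shared region nearest to a member had a median of 1128.75 bp under peaks per library, against 1137.5 bp over all shared regions.

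Some members stood close to another member, which was not particular to members. The distance to the nearest other member had a lower quartile of 7917 bp and a median of 93653 bp. Between shared regions, which are more numerous, these values were 5144 and 24228 bp. Of all, 796 members (26.6%) had another within 10 kb, and chaining by that distance gave 290 pairs and 59 larger groups. The largest group held 7 members at chr14:122871975-122890253, of which 2 had a peak in dKO replicate 1, 1 in dKO replicate 2, 2 in WT replicate 1 and 6 in WT replicate 2. There were 3 groups of 6. The first was at chr1:78185597-78200503, with 2 and 1 members in dKO replicates 1 and 2 and 2 and 3 in WT replicates 1 and 2. The second, at chr7:77470534-77493058, had 2 and 0 members in dKO and 3 and 4 in WT. In these groups the smallest gap to a shared region was between 1056 and 1791 bp, so each group had a member within 2000 bp of a shared region. Of 447 neighbouring pairs of members within a chain, 76 (17.0%) had the same presence pattern. The share among pairs of members far apart, with which it would have to be compared, was not computed. Nothing about neighbours is therefore read from this share.

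Chromosome X carried more variable regions of both kinds than any autosome for its number of shared regions. It had 125 members for 470 shared regions, or 26.6 per 100, whereas the 19 autosomes ran from 16.7 to 23.1 with a median of 19.8. Variable regions within 1000 bp of a shared region stood at 20.9 per 100 on chromosome X and at 9.24 to 13.5 on the autosomes, with a median of 11.3, so the higher count is not particular to members. Counting only members with a peak in that library, chromosome X had 11.9 and 2.13 per 100 shared regions in dKO replicates 1 and 2 and 18.3 and 18.1 in WT replicates 1 and 2. The medians of the autosomes were 7.73 and 2.27 in dKO and 11.9 and 14.5 in WT. Chromosome X was above all 19 autosomes in dKO replicate 1 and both WT libraries, and below 11 of them in dKO replicate 2. Without dKO replicate 2, chromosome X had 84 members for 525 shared regions, or 16 per 100, against an autosome median of 14.1 and range of 10.6 to 17.4, so 1 autosome was above it.

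**Figure D5:**
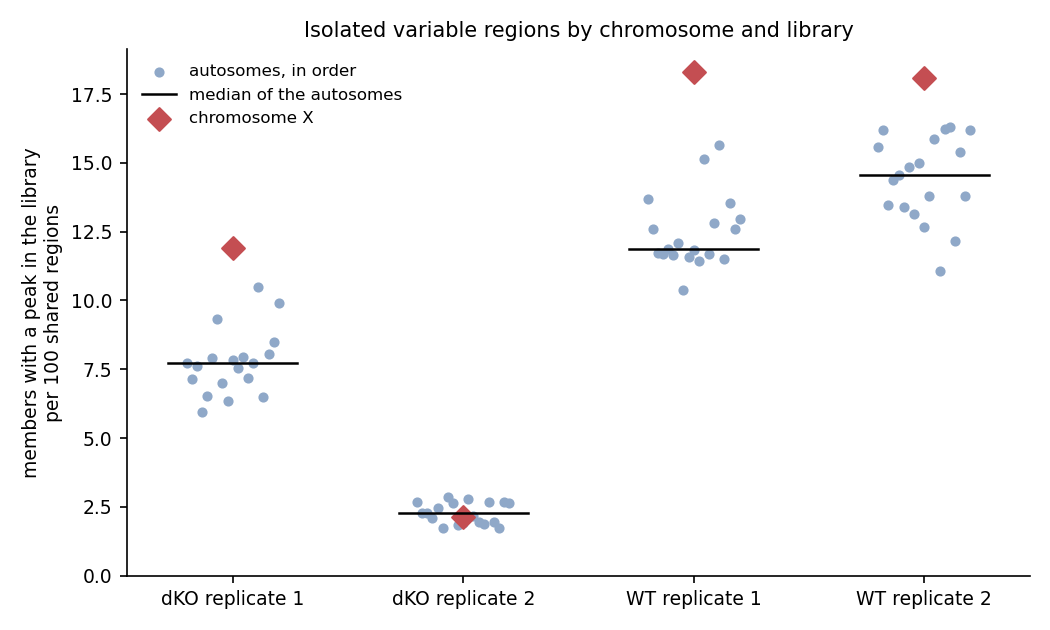
Members with a peak in the library per 100 shared regions (vertical axis) for each autosome (blue points, black line at their median) and chromosome X (red diamond). The diamond is above every autosome in dKO replicate 1 and in both WT libraries, and at 2.13 it sits among the autosomes in dKO replicate 2.

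Of the 125 members at chromosome X, 34 (27.2%) lacked only dKO replicate 2, against 20.9% of all members, and 17 (13.6%) were present only in both WT libraries, against 16.3% of all. All peaks at chromosome X numbered 612 and 548 in dKO replicates 1 and 2 and 668 and 669 in WT. Chromosome Y had 0 and 3 peaks in dKO replicates 1 and 2 and 2 and 0 in WT replicates 1 and 2. The sex of the embryos is not in the labels used here, and the part of sex in the chromosome X counts was not tested. The 3 regions at chromosome Y were all members because that chromosome had no shared region. They lay from 581550 to 582151 (602 bp in dKO replicate 2 and 463 bp in WT replicate 1), from 622084 to 623043 (960 and 282 bp in the same libraries) and from 347030 to 347292 (263 bp in dKO replicate 2).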

How the data were processed

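H3K4me3 chromatin immunoprecipitation and sequencing was done on E12.5 mouse brain, with 2 dKO and 2 WT libraries. The input libraries were not analysed here. The deposited files are 1 peak list per library with positions and a score. The submitters' processing notes name MACS2 2.1.1.20160309, BWA 0.7.12-r1039, bedtools, Picard 2.6.0, R 2.14.0 and SAMtools, and genome build mm9. Their roles, the peak threshold, the use of input and the scale of the score deposited by the authors are not given in the sources used here. The lowest score was 13 in every list. Scores were ranked within a list only, as the percentage of its peaks that scored lower with tied peaks given their mean rank. The lists hold no read counts, so no interval for depth could be given.

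Lists were merged with bedtools 2.31.1 at distance 0, and gaps count the bases between regions. Coordinates are on mm9 and count from 1. The gene and promoter tables used here are of another build, so no region was assigned to a gene and no sequence is shown. Medians per library were compared by exact two-sided permutation tests over libraries, with Python 3.11.15, numpy 2.4.6 and pandas 2.3.3, and plots were drawn with matplotlib 3.10.9. Region building and both tests were tested on simulated data. The members and the comparisons were chosen with earlier results of these data known.

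Regions named were the 10 members only in both libraries of a genotype with the highest lower percentile, 3 for each pattern of 3 libraries, 2 for each single library, the 3 with the largest gap, the 3 widest, the 3 on either side of the gap limit and the 3 groups with the most members chained within 10 kb, with ties taken in genome order. The regions on chromosome Y were named in addition. Alternatives were gap limits of 500, 2000 and 5000 bp, lists of equal length, peaks within 1000 bp merged first, presence only where a library had at least 50% of the base pairs of the widest library, peaks under 300 bp left out, autosomes only, each library left out and the replicate number as a block.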

Additional observations from a re-analysis of the deposited data

How the results depend on the processing

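The number of members was 2993 and ranged from 2255 to 4047 over the 12 alternatives. Members only in both dKO libraries numbered 17, but 58 with lists of equal length and 51 to 156 with a library left out, when the genotype left with 1 library is judged on that library alone. Those only in both WT libraries numbered 488, but 192 with lists of equal length and 607 to 1170 with a library left out. The other alternatives kept both counts within 1.5 times. The difference dKO minus WT stayed negative in all alternatives run, from -66.5 to -10.5 bp for median width and from -5.29 to -0.42 points for median percentile. The mean difference between members and nearby variable regions stayed positive, from 15.7 to 61.8 bp and from 0.26 to 2.70 points. In the main setting, however, the difference in points was 0 in every library but WT replicate 2. With peaks within 1000 bp merged first, only 34 nearby variable regions were left, so that setting says little on this difference. No p could pass a threshold of 0.05 in these designs. With the replicate number as a block the differences between genotypes were the same, -26 bp and -4.13 points (exact sign-flip permutation p = 0.5 for both, the smallest possible). No label says that equal numbers share a litter or day, and the deviations of equal-numbered libraries in the widths of shared regions had a correlation of -0.059. Members on chromosome X per 100 shared regions, a value chosen after the data were seen, were 26.6, and 16 to 24.3 with a library left out, lowest without dKO replicate 2. They were 43.0 when presence needed 50% of the widest library. The autosome median moved as well, from 19.8 to between 14.1 and 18.0 with a library left out, and to 28.9 with the 50% rule. Chromosome X was above every autosome in all settings run for it except without dKO replicate 2, where 1 autosome was above it. Unknown depth limits every statement on a missing peak.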
